A study of Mus musculus with 3 samples.

Results

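The 10 genes described here encode precursors of neuropeptides used in the spinal cord: Tac1, Penk, Pdyn, Sst, Npy, Gal, Cck, Grp, Nts and Calca. They were found by exact gene symbol among the 51826 genes of the deposited gene table, and all 10 had exactly 1 row. RNA was sequenced from spinal cords of C57BL/6 mouse embryos at embryonic day 13.5, with 1 library for each of 3 genotypes. The dE3 library came from embryos carrying Nestin-Cre and a floxed exon 3 of Ctnnb1, which the labels call a gain of function. The cKO library came from embryos carrying Nestin-Cre and floxed exons 2 to 6 of Ctnnb1, which they call a loss of function. The WT library came from wild type embryos, for which the labels mention no Cre.

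Ctnnb1 encodes β-catenin, the protein through which canonical Wnt signals reach TCF/LEF transcription factors. Nestin-Cre acts in neural progenitors and their descendants, so that neurons of the cord inherit a recombined allele. The number of embryos behind a library is not stated. The comparisons ask how β-catenin that is stabilised or missing in the neural lineage alters the RNA of these peptide genes.

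Neuropeptides are made as long precursors that enter the secretory pathway, are cut at pairs of basic residues by prohormone convertases, trimmed by carboxypeptidases and often amidated at the carboxyl end. They are stored in dense-core vesicles and act mostly on G-protein-coupled receptors. In the dorsal horn, peptide genes mark neuron classes of the circuits for touch, itch and pain, and many of them come on while neurons are still settling in the embryo.

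The libraries held 34790053 (dE3), 33048837 (cKO) and 32167470 (WT) estimated counts, and 1 count was worth about 0.03 CPM (counts scaled to library size) in each. All 10 genes had at least 20 counts in at least 1 library, which is the minimum used here for a measured gene, as did 18074 genes in all. Each genotype has a single library, so differences have no replicate check, no p-value was computed, and every interval covers counting error only, so the values compare these libraries and not the genotypes at large. A gene was called when its ratio of scaled counts was at least 2-fold and the 95% interval of that ratio excluded 1. Ctnnb1 itself stood at 461 CPM in dE3, 422 CPM in cKO and 544 CPM in WT, a total that also counts the exons left in place. All 8 trunk Hox genes listed reached 10 CPM in every library, all 20 pan-neuronal genes did as well, and none of 6 forebrain markers did. The name of the cKO library carries the tag L3 and those of the others L2, so that this tag and the cKO genotype cannot be told apart.

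No neuropeptide gene reached 2-fold against WT, while Gal and Pdyn passed it between the 2 mutants. None of the 10 was called in dE3 against WT, where 10.3% of all measured genes were called (6.52% higher and 3.78% lower). None was called in cKO against WT either, where 6.91% of measured genes were (3.50% higher and 3.41% lower). Between dE3 and cKO 2 of the 10 were called, both lower in dE3, where 11.0% of measured genes were called (6.62% higher and 4.38% lower). Gal, the precursor of galanin, was 3.40-fold lower (2.88 to 4.03) and Pdyn, the precursor of the dynorphins, 2.08-fold lower (1.88 to 2.303). The 3 comparisons are built from the same 3 libraries and are not independent of each other. In bulk RNA, fewer cells of a type and less RNA per cell cannot be told apart.

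**Figure D1:**
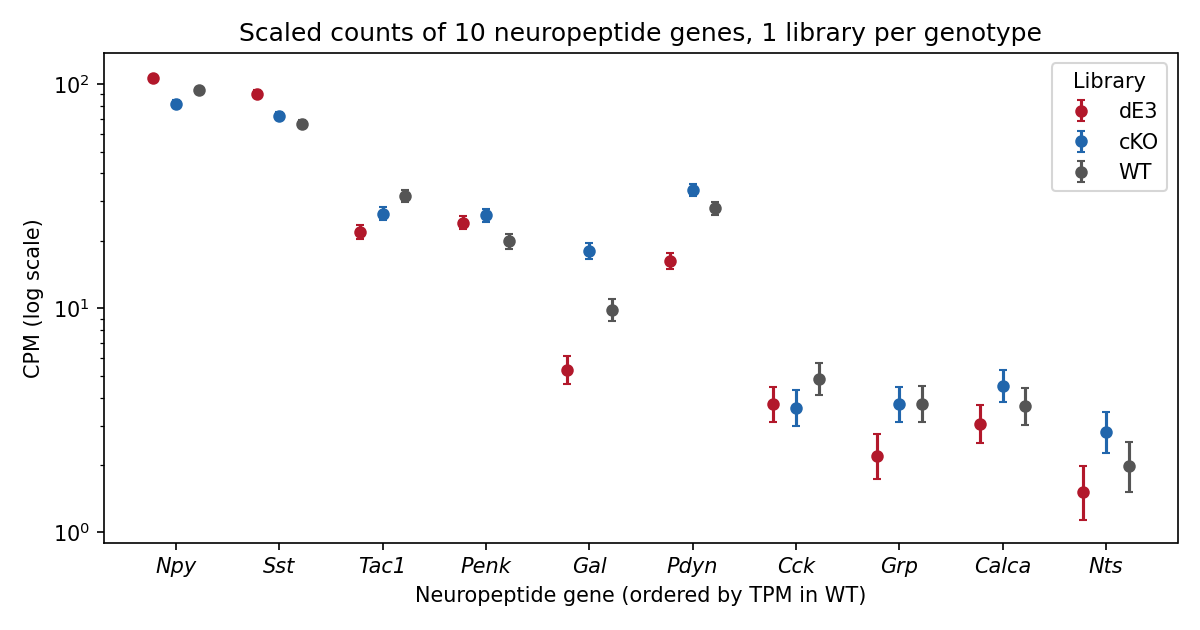
Scaled counts (CPM, log axis) of the 10 neuropeptide genes in the dE3, cKO and WT libraries, ordered by TPM in WT; points are single libraries and bars are 95% Poisson intervals of the count. Gal shows the widest separation, at 5.31 CPM in dE3, 18.05 in cKO and 9.83 in WT.

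Per unit of transcript length, Npy and Sst dominated neuropeptide RNA in every library. Npy encodes neuropeptide Y, a peptide of inhibitory dorsal horn neurons, and stood at 469.9 TPM (the authors' length-corrected unit) in dE3, 358 TPM in cKO and 409 TPM in WT. Sst encodes somatostatin, found in excitatory dorsal horn neurons and in some inhibitory ones, and stood at 379, 298 and 273 TPM in the same libraries. Together they made up 81.2% of the summed TPM of the 10 genes in dE3, 70.0% in cKO and 73.5% in WT. The summed TPM was 1045 in dE3, 936 in cKO and 928 in WT, or 0.105%, 0.0937% and 0.0929% of all TPM. The total was therefore nearly even across the libraries while its make-up shifted.

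The order of the genes by TPM was nearly the same in each library. In WT, Tac1 (81.1 TPM), Penk (59.4 TPM), Gal (34.0 TPM) and Pdyn (29.6 TPM) followed Npy and Sst, ahead of Cck (17.5 TPM), Grp (10.5 TPM), Calca (10.3 TPM) and Nts (3.88 TPM). Grp and Calca lay next to each other in WT and exchanged places in both mutants, as did Tac1 and Penk. The highest gene exceeded the lowest 156-fold in dE3, 64.8-fold in cKO and 105-fold in WT. Among all measured genes, Npy ranked at percentile 98.7 in dE3, 98.1 in cKO and 98.5 in WT, and Nts at percentile 21.6, 30.4 and 26.0.

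**Figure D2:**
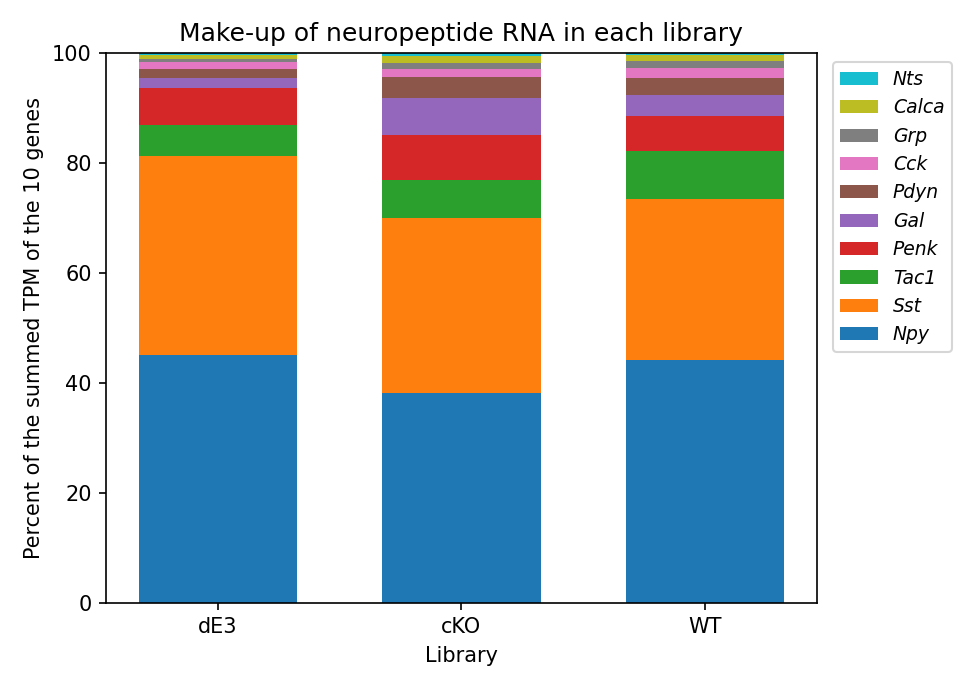
Share of each gene in the summed TPM of the 10 neuropeptide genes, as stacked bars for the dE3, cKO and WT libraries. Gal and Pdyn take 1.79% and 1.66% in dE3, 6.72% and 3.93% in cKO, and 3.67% and 3.18% in WT.

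With all transcripts counted, Gal had the lowest ratio of the 10 genes in dE3 against WT and in dE3 against cKO, and the highest in cKO against WT. Galanin is an amidated peptide of sensory ganglia, dorsal horn neurons and many brain nuclei, known for its induction in injured sensory neurons. The gene (chromosome 19, 3409919 to 3414472, minus strand, GRCm38) had 186 counts in dE3, 596 in cKO and 314 in WT. It was lowest in dE3 and highest in cKO, with WT in between. The ratio was 0.540 (95% interval 0.448 to 0.649) in dE3 against WT and 1.84 (1.60 to 2.11) in cKO against WT, both short of the 2-fold threshold. In dE3 against cKO it was 0.294 (0.248 to 0.347). Set against Npy in the same library, which removes the scaling between libraries, Gal had 0.0500 counts per Npy count in dE3 (0.0429 to 0.0580). The value was 0.221 in cKO (0.202 to 0.242) and 0.105 in WT (0.0929 to 0.118). Npy itself was highest in dE3 and lowest in cKO, which widens the spread of this ratio. The pair was chosen after its values were seen, so the ratio is no independent check.

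Dorsal root ganglion sensory neurons lie beside the cord and also express Gal and Calca. Their markers, like Gal, had the lowest sum in dE3 and the highest in cKO. Of 12 listed markers 11 were in the table and 10 were measured, and their summed level was 212 CPM in dE3, 534 CPM in cKO and 284 CPM in WT. Their median log2 ratio was -0.39 in dE3 against WT and 0.91 in cKO against WT, beside -0.89 and 0.88 for Gal. Pan-neuronal genes had medians of -0.37 and 0.08, and motor neuron markers of -0.51 and 0.20. In dE3 against WT 1 of the 10 ganglion markers was called lower, beside 3.78% of all measured genes, and 2 had a log2 ratio above 0. In cKO against WT 2 were called higher, beside 3.50%. In dE3 against cKO 8 of the 10 were called lower, beside 4.38% of all measured genes. The median of the 10 was -1.30, beside -1.77 for Gal and -1.06 for Pdyn. Mrgprd was at 0 in every library, and no other marker of that list was. The part of ganglion RNA in the Gal difference was not tested.

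Sympathetic and chromaffin cells are another known source of galanin and neuropeptide Y. Their 8 listed markers summed to 17.0 CPM in dE3, 35.2 CPM in cKO and 25.4 CPM in WT, of which Th, also used by sensory and spinal neurons, gave 8.59, 24.8 and 13.9 CPM. Dbh, the enzyme that defines noradrenergic cells, had 40 counts in dE3, 0 in cKO and 12 in WT, and Hand2 had 31, 0 and 0. In cKO 3 of the 8 markers were at 0, Dbh and Hand2 among them, while Th and the summed level were highest there. Hand2 was the 1 marker at 0 in WT, and 0 of the 8 were at 0 in dE3. The part of these cells in the Gal values was not tested.

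**Figure D3:**
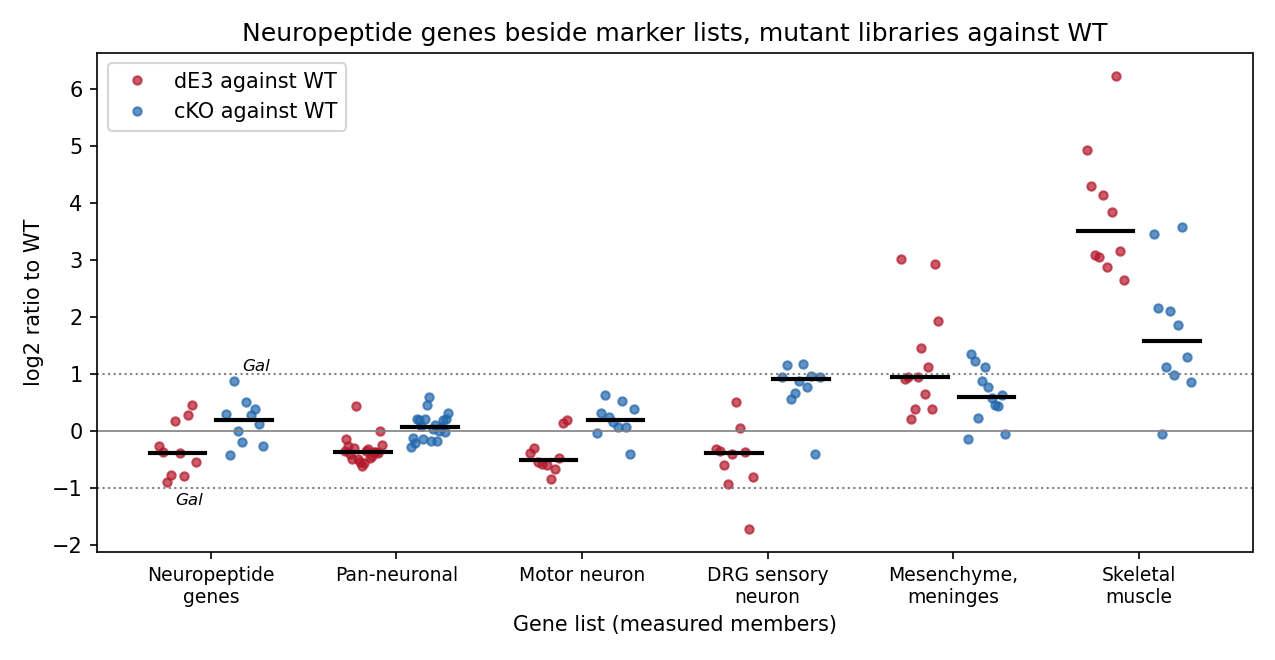
log2 ratio to WT of each measured gene in the neuropeptide list and in 5 marker lists, for dE3 (left of each pair) and cKO (right of each pair); black bars are list medians and dotted lines mark 2-fold. The neuropeptide medians are -0.38 in dE3 and 0.19 in cKO, those of the sensory ganglion markers -0.39 and 0.91, and those of the pan-neuronal genes -0.37 and 0.08.

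The opioid precursors Penk and Pdyn went different ways in dE3. Penk encodes the enkephalins, which act on δ and μ receptors, and Pdyn the dynorphins, which act on κ receptors and mark inhibitory dorsal horn neurons. Both precursors carry repeats of the opioid core Tyr-Gly-Gly-Phe followed by Met or Leu. The annotated coding sequence of Penk (its transcript of 1449 bases) holds 6 cores ending in Met and 1 ending in Leu. That transcript held 280 of the Penk counts in dE3, 245 in cKO and 158 in WT. The others (564, 613 and 479) were assigned to one of 721 bases, annotated with 3 Met cores and 0 Leu cores. The annotation of the 721-base transcript stops at position 4134112, before the place of the fourth core of the longer one (4134073 to 4134087). These counts therefore do not show how many cores the RNA held. The annotated coding sequence of Pdyn holds 3 cores, all ending in Leu. The coding stretches are shown to let the cores of the precursors be compared, with the fifth codon in capitals (GENCODE vM21 transcripts, GRCm38, minus strand).
Penk first core, chr4:4134334-4134348: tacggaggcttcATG
Penk Leu core, chr4:4133941-4133955: tatgggggcttcCTG
Pdyn first core, chr2:129688238-129688252: tatggcggctttTTG
Pdyn second core, chr2:129688130-129688144: tatgggggcttcCTG
Pdyn last core, chr2:129688073-129688087: tatggtggtttcCTG

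Pdyn (chromosome 2, 129686565 to 129699844, minus strand) had 570 counts in dE3, 1116 in cKO and 893 in WT, or 16.3, 33.8 and 27.9 CPM. It was lowest in dE3 and highest in cKO. The ratio was 0.582 (0.523 to 0.647) in dE3 against WT, 1.21 (1.11 to 1.32) in cKO against WT and 0.481 (0.434 to 0.533) in dE3 against cKO. Penk (chromosome 4, 4133531 to 4138819, minus strand) had 844 counts in dE3, 858 in cKO and 637 in WT. Both mutants lay above WT and close to each other, with ratios to WT of 1.21 (1.09 to 1.34) in dE3 and 1.30 (1.17 to 1.45) in cKO. There were 0.675 Pdyn counts per Penk count in dE3 (0.606 to 0.752), 1.30 in cKO (1.19 to 1.42) and 1.40 in WT (1.26 to 1.55). The dE3 interval did not meet the others, but the pair was chosen after its values were seen, so this is no test. The Pdyn call in dE3 against cKO was lost when the libraries were scaled to pan-neuronal genes (log2 ratio -0.65). Of the 50-base words of Penk transcripts, 8.60% also occur in the overlapping gene A830012C17Rik on the opposite strand, and the sources used here do not say whether strand was counted.

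Tac1 encodes substance P and neurokinin A, tachykinins of excitatory dorsal horn and sensory neurons. The gene (chromosome 6, 7554879 to 7565834, plus strand) had 767 counts in dE3, 871 in cKO and 1015 in WT. Both mutants lay below WT, with ratios of 0.689 (0.626 to 0.757) in dE3 and 0.830 (0.758 to 0.910) in cKO. The peptides share the ending Phe-X-Gly-Leu-Met, and splicing decides whether a transcript carries the core of neurokinin A beside that of substance P. The coding stretches of both cores in the 1230-base transcript are shown with the differing second codon in capitals (plus strand, GRCm38).
Substance P core, chr6:7556750-7556764: ttcTTTggattaatg
Neurokinin A core, chr6:7559116-7559130: tttGTTggactaatg

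Transcripts with both cores (of 691 and 1230 bases) held 711 of the Tac1 counts in dE3 (92.7%), 862 in cKO (99.0%) and 934 in WT (92.0%). A transcript of 980 bases, which carries the substance P core without that of neurokinin A, held 49 counts in dE3, 6 in cKO and 72 in WT. The cKO library thus had the fewest reads assigned to it, with a ratio to WT of 0.0806 (0.0285 to 0.184), while the 1230-base transcript had 387, 614 and 610 counts and was lowest in dE3 (ratio to WT 0.578, 0.508 to 0.658). Counts per transcript are estimates of how reads divide among overlapping forms, and their intervals leave out the error of that division.

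Sst (chromosome 16, 23889581 to 23890844, minus strand) had 3182 counts in dE3, 2382 in cKO and 2127 in WT. It was highest in dE3, with ratios of 1.36 (1.29 to 1.44) in dE3 against WT and 1.08 (1.02 to 1.15) in cKO against WT. Npy (chromosome 6, 49822710 to 49829507, plus strand) had 3718 counts in dE3, 2697 in cKO and 2998 in WT, with ratios to WT of 1.13 (1.08 to 1.19) and 0.870 (0.826 to 0.917). Npy was thus also highest in dE3, but lowest in cKO. Counts of Sst per count of Npy were 0.856 in dE3 (0.816 to 0.898), 0.883 in cKO (0.835 to 0.934) and 0.709 in WT (0.671 to 0.750), higher in both mutants than in WT. Of the 10 genes, Sst, Npy and Penk had a positive log2 ratio in dE3 against WT (0.45, 0.18 and 0.27), beside a pan-neuronal median of -0.37.

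**Figure D4:**
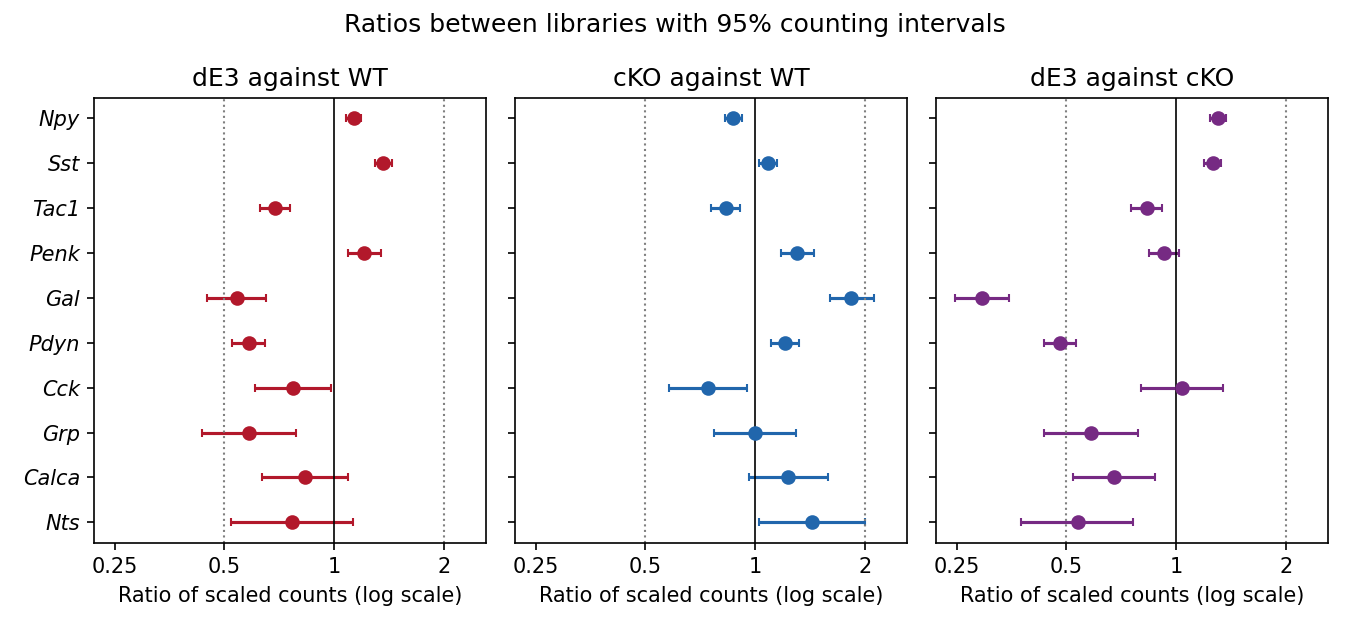
Ratio of scaled counts for each neuropeptide gene in the mutants against WT and in dE3 against cKO, with 95% counting intervals on a log axis; dotted lines mark 2-fold in either direction. All ratios to WT lie between the dotted lines, and in dE3 against cKO Gal (0.294) and Pdyn (0.481) lie left of the line at 0.5.

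Cck, Grp and Nts mark excitatory dorsal horn neurons, and in WT lay at percentiles 50.3, 40.6 and 26.0 of measured genes by TPM. Cck, the cholecystokinin precursor (chromosome 9, 121489824 to 121495694, minus strand), had 131 counts in dE3, 119 in cKO and 155 in WT, with ratios to WT of 0.771 (0.606 to 0.979) and 0.743 (0.580 to 0.949). Its main transcript, of 691 bases, held 95, 88 and 138 counts, whereas one of 783 bases, which has the same coding length of 345 bases, held 34, 27 and 10. The 783-base transcript therefore ran opposite to the gene total, with ratios to WT of 3.10 (1.497 to 7.03) in dE3 and 2.61 (1.23 to 6.05) in cKO. Grp, gastrin-releasing peptide, an itch transmitter of the dorsal horn (chromosome 18, 65872820 to 65886579, plus strand), had 77 counts in dE3, 124 in cKO and 120 in WT. It was lowest in dE3, with a ratio to WT of 0.585 (0.434 to 0.785), and level in cKO at 1.00 (0.772 to 1.30). Without the transcript that differed most, 10 Grp counts in dE3 and 7 in WT were left, too few to give a direction (ratio 1.30, 0.448 to 4.03). Nts, neurotensin (chromosome 10, 102481756 to 102490486, minus strand), had 53 counts in dE3, 93 in cKO and 63 in WT. Its ratio to WT was 0.767 in dE3, where the interval of 0.522 to 1.12 includes 1, and 1.43 (1.03 to 1.999) in cKO.

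Calca encodes both calcitonin and calcitonin gene-related peptide (CGRP) by alternative splicing, CGRP being the form of motor and sensory neurons. The gene (chromosome 7, 114631478 to 114636357, minus strand) had 107 counts in dE3, 149 in cKO and 117 in WT. Ratios to WT were 0.834 (0.635 to 1.09) in dE3 and 1.23 (0.961 to 1.58) in cKO, so a difference from WT was not detectable at this depth. The CGRP form of 994 bases held 91 counts in dE3 (85.0%), 133 in cKO (89.3%) and 102 in WT (87.2%). The calcitonin forms, of 830 and 720 bases, together held 4, 7 and 0 counts. The neuronal splice form thus carried most Calca reads in every library. Listed motor neuron markers, another source of CGRP, summed to 389 CPM in dE3, 424 CPM in cKO and 420 CPM in WT, with median log2 ratios to WT of -0.51 and 0.20. Of the 50-base words of Calca, 0.715% also occur in its paralog Calcb.

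Promoters of the members were searched for the TCF/LEF core in the form CTTTGAA as well as the forms ending differently, namely CTTTGAT and also CTTTGTA and also CTTTGTT, on both strands of the 250 bases before each annotated start (RefSeq, GRCm38.p6). Of the 10 genes, 8 had at least 1 window, giving 9 windows, and 1 window held a match, that of Calca, at its distal edge (TTCAAAG, the reverse complement of CTTTGAA). Over all 32851 windows 14.8% held a match. The cyclic AMP response element TGACGTCA, which reads the same on both strands, was found in 1 of the 9 windows, that of Sst, starting 48 bases before the start, and in 1.55% of all windows. The window of Gal, the more distal of the 2 windows of Pdyn, and that of Sst are shown 5′ to 3′ on the coding strand, with the response element in capitals. No full match to the motifs searched occurs in the Gal window or in either Pdyn window, which says nothing on whether the factors act on these genes.
Gal, chr19:3414545-3414794: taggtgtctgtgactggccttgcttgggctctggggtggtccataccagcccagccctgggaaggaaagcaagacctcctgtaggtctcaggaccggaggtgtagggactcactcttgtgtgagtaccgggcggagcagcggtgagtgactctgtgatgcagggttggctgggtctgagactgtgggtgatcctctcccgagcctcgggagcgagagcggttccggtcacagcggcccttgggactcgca
Pdyn, chr2:129699939-129700188: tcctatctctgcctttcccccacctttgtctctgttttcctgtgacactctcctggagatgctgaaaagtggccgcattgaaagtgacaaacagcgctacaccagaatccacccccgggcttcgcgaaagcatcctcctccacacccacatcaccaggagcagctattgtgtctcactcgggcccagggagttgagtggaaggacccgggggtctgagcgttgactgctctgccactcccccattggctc
Sst, chr16:23890845-23891094: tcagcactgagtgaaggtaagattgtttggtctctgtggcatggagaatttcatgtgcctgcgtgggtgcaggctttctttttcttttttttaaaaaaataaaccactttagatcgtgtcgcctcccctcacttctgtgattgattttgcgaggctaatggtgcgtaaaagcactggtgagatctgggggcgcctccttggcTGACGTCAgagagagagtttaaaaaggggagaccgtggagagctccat

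Of 36 other peptide precursors listed, 14 were measured. In dE3 against WT 1 was called higher and 4 lower, beside 6.52% and 3.78% of all measured genes (median log2 ratio -0.17, beside 0.00 over all genes), but with the pan-neuronal median set to 1 the split was 2 higher and 1 lower. The calls were 1 higher and 1 lower in cKO against WT (median -0.18), beside 3.50% and 3.41% of all measured genes. Adcyap1, the precursor of PACAP, a peptide of neurons and sensory ganglia, had 358 counts in dE3, 645 in cKO and 764 in WT, and was 2.34-fold lower in dE3 than in WT (2.06 to 2.66). Cartpt, the CART precursor, was 2.25-fold lower (1.84 to 2.75), Calcb, which encodes the second CGRP, 2.33-fold lower (1.42 to 3.91), and Crh, corticotropin-releasing hormone, 3.29-fold lower (1.502 to 7.95). The call higher in dE3 was Trh, with 6 counts in WT and 20 in dE3, just at the minimum for a measured gene (ratio 3.04, 1.18 to 9.25). In cKO against WT the calls were Adm, adrenomedullin, a vascular peptide with 59 counts in cKO and 23 in WT, and Npff, which encodes a peptide that modulates opioid action, with 35 and 69 counts. Pnoc, the nociceptin precursor, had the highest TPM of the list in WT and stood at 29.7 TPM in dE3, 37.3 in cKO and 34.1 in WT.

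Of 24 measured receptors of these peptides and their partners, 4 were called higher and 4 lower in dE3 against WT, beside 6.52% and 3.78% of all measured genes (median log2 ratio -0.40). The split was 4 higher and 1 lower with the pan-neuronal median set to 1. In cKO against WT 1 was called higher (median 0.04), a share near the 3.50% of all measured genes. It was Ntsr2, with 23 counts in cKO and 10 in WT. The receptor for CGRP needs both Calcrl, the receptor protein, and Ramp1, its partner. Ramp1 had 10 counts in dE3, 96 in cKO and 89 in WT, 9.76-fold lower in dE3 than in WT (5.07 to 21.1). Calcrl, also used by adrenomedullin in vessels, had 1057 counts in dE3, 582 in cKO and 459 in WT, a ratio in dE3 against WT of 2.10 (1.88 to 2.35) that was 1.11 without the transcript that differed most. With all transcripts counted, the partners of the CGRP receptor thus had opposite calls in dE3 against WT. Endothelial markers, whose cells use Calcrl, had a median log2 ratio of 0.20 in that comparison. Their part in the Calcrl values was not tested.

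Tacr3, a tachykinin receptor, had 367 counts in dE3, 136 in cKO and 107 in WT (ratio in dE3 against WT 3.13, 2.51 to 3.92). Oprk1, the κ receptor for dynorphin, had 101 counts in dE3, 34 in cKO and 35 in WT (2.63, 1.78 to 3.98), and was called higher in dE3. Without the transcript that differed most this call was lost, at 50 counts in dE3 and 26 in WT (1.75, 1.07 to 2.93). Grpr, the receptor for gastrin-releasing peptide, had 49, 23 and 11 counts (4.06, 2.08 to 8.66). The galanin receptor Galr2 (40, 66 and 75 counts), the cholecystokinin receptor Cckar (31, 76 and 59) and the neurotensin receptor Ntsr1 (27, 63 and 53) were called lower in dE3 than in WT, by 2.06-fold, 2.09-fold and 2.15-fold. Sort1, a sorting receptor that binds neurotensin, had the highest TPM of the list, at 98.7 TPM in dE3, 88.4 in cKO and 92.6 in WT. When the transcript that differed most was left out of each gene, 3 of the 18 receptors still measured were called in dE3 against WT, all higher. Under that setting 2374 of 15514 genes were called in all (1329 higher and 1045 lower).

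**Figure D5:**
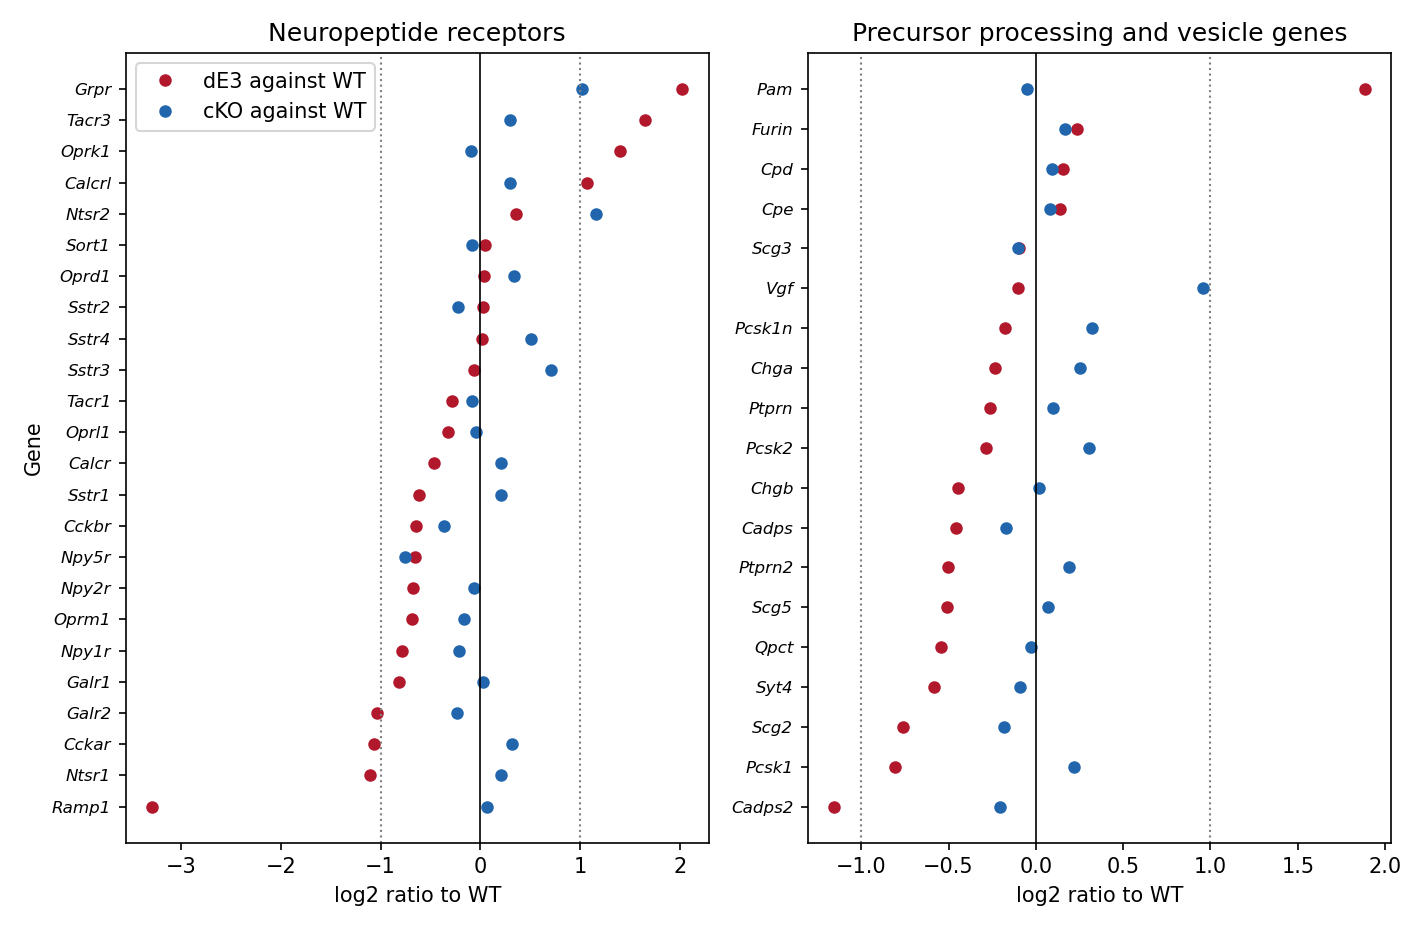
log2 ratio to WT of measured neuropeptide receptors (left panel) and of genes for precursor processing and dense-core vesicles (right panel), for dE3 and cKO; dotted lines mark 2-fold. Ramp1 lies farthest left in dE3 among the receptors, at 10 counts against 89 in WT, and Pam farthest right among the processing genes, at 3.69-fold.

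In the machinery that turns precursors into peptides, Pam had the largest ratio in dE3 against WT among the 19 listed genes. Pam encodes the enzyme that amidates the ends of substance P, neuropeptide Y, galanin, cholecystokinin and CGRP. It had 8929 counts in dE3, 2199 in cKO and 2208 in WT, a ratio in dE3 against WT of 3.69 (3.52 to 3.86), and of 2.88 (2.69 to 3.08) without the transcript that differed most. Cadps2, which primes dense-core vesicles for release, was called lower, at 2.23-fold (1.91 to 2.604), with a ratio of 1.25 without its most different transcript. Of 19 measured genes these 2 were the calls in dE3 against WT, a share near the 10.3% of all measured genes (median log2 ratio -0.29), and none was called in cKO against WT, beside 6.91% (median 0.08). In dE3 against cKO, Pam was called higher, and the convertase gene Pcsk1 and the granin gene Vgf lower, by 2.03-fold (1.63 to 2.56) and 2.08-fold (1.75 to 2.49). The convertase genes Pcsk1 and Pcsk2 stood at 3.45 and 48.3 CPM in dE3, 7.03 and 72.6 CPM in cKO, and 6.04 and 58.8 CPM in WT. Cpe, the carboxypeptidase that trims the cut precursors, had the highest TPM of the list, at 737 TPM in dE3, 700.4 in cKO and 659 in WT.

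Pan-neuronal genes had a median log2 ratio of -0.37 in dE3 and 0.08 in cKO against WT, with none of 20 called, and the neuropeptide genes had medians of -0.38 and 0.19. Dorsal horn transcription factors, which specify the peptide neurons, had medians of -0.21 and -0.15, with 1 of 27 called higher and 5 lower in dE3, beside 6.52% and 3.78% of all measured genes, and none in cKO, beside 6.91%. The call higher was Prdm13 (1871 counts in dE3, 220 in cKO and 295 in WT), a regulator of inhibitory dorsal horn neurons. Among those lower were Tlx1 (4, 36 and 43 counts), which specifies excitatory dorsal horn neurons, and the progenitor factor Gsx2 (6, 41 and 55). RNA of tissues outside the cord also differed, with skeletal muscle markers at 188 CPM in dE3, 49.0 CPM in cKO and 14.8 CPM in WT in sum, and cartilage markers at 966, 421 and 157 CPM. Mesenchyme and meninges markers, some of whose cells express Penk, summed to 1002 CPM in dE3, 1136 CPM in cKO and 529 CPM in WT, and Penk was likewise above WT in both mutants. Their part in the Penk values was not tested.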

How the data were processed

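The authors deposited estimated counts, TPM and FPKM per gene and per transcript, per the file headers. As deposited, these counts are whole numbers; they were used unchanged and summed from transcripts to genes for all 51826 genes. Transcripts with a count of 1 had a median TPM of 0.04 in each library, some near 0, so that transcript counts of a few reads may be rounded up. The deposited TPM (corrected for length) served for levels between genes and as an alternative. The deposited FPKM was not used. Bowtie2 2.3.2, CASAVA and the build GRCm38.p6 are named, without roles, per the submitters' processing notes. For the quantification tool, annotation release and strand setting, nothing is given in the sources used here. A VAHTS mRNA-seq kit was used on Trizol RNA, per the labels' protocols.

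Counts were scaled by TMM (edgeR 4.0.16, R 4.3.3) over genes with at least 20 counts in at least 1 library, with factors of 1.01 (dE3), 0.999 (cKO) and 0.993 (WT). Ratios had exact conditional binomial (Clopper-Pearson) 95% intervals (SciPy 1.17.1). Intervals cover counting error only, since each genotype has 1 library. Reads without identifiers do not stand for separate molecules, so the intervals may be too narrow even for counting error. Of 239 listed symbols, 236 matched. Calls were tested on simulated data. Members and lists were chosen with earlier results of these data known. Named genes were all members and, per list, up to 4 called against WT for which the interval bound nearest to 1 lay farthest from it, and the one with the highest TPM in WT; some of these are not reported here. Further receptors, precursors, convertases and transcripts, and the pairs set against each other within a library, were chosen after their values were seen. No member was called against WT, so no gene of like pattern was named. Transcript sequences came from GENCODE vM21 and promoters from RefSeq.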

Additional observations from a re-analysis of the deposited data

How the results depend on the processing

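Scaling by total counts, by DESeq2 size factors or by the authors' TPM kept the number of members called at 0, 0 and 2 (dE3 against WT, cKO against WT, dE3 against cKO). Setting the pan-neuronal median to 1 brought the median log2 ratio of all genes to 0.37 (dE3 against WT), -0.07 and 0.42. The share of calls that were higher became 85.0%, 42.8% and 86.2%, against 63.3%, 50.6% and 60.2%. This scaling left 1 member called in dE3 against cKO (Gal). In dE3 against WT it left 5 receptors (4 higher, 1 lower), 3 other precursors (2 higher, 1 lower) and 1 processing gene, and in cKO against WT 0 receptors. Signs turned for Calca in dE3 against WT (0.10) and for Penk (0.30) and Tac1 (0.14) in dE3 against cKO. TPM gave 2 receptors in cKO against WT and 1 processing gene in dE3 against WT.

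A threshold of 1.5-fold called 3 members in dE3 against WT (Pdyn, Gal and Grp, lower), 1 in cKO against WT (Gal, higher) and 4 in dE3 against cKO (with Nts and Grp), as well as 15 (4 higher, 11 lower) and 3 receptors, 4 and 1 processing genes (dE3 and cKO against WT), and 3499, 2508 and 3981 of all genes. At 3-fold 1 member was called in dE3 against cKO (Gal), with 3 and 0 receptors, 2 and 0 other precursors, 1 processing gene in dE3, and 903, 530 and 911 of all genes, against 1861, 1249 and 1988 at 2-fold. A minimum of 100 counts left 3 (all higher) and 0 receptors, 2 and 0 other precursors, and 882, 401 and 912 of all genes. No minimum gave 2 receptors in cKO, 8 other precursors in dE3, and 2910, 2168 and 3083 of all genes.

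Without the most different transcript 0, 0 and 2 members were called (Gal and Pdyn, lower in dE3 than in cKO). Gal has a single transcript in the deposited data and kept its total, so its call could not change under this setting. Pdyn was left with 5 counts in dE3 and 23 in cKO (4.88-fold lower), which says nothing on its stability. Of 18 ratios of members with several transcripts, 12 kept their sign. Cck stood at 0.95 and 0.82 on the log2 scale in dE3 and cKO against WT, against -0.38 and -0.43 with all transcripts, and Grp, left with 10 and 7 counts, at 0.38 in dE3 against WT, against -0.77. In dE3 against cKO the signs of Penk (0.11), Tac1 (0.48) and Cck (-0.01) turned. Receptors called were 3 (all higher) and 3, other precursors 1 in cKO and processing genes 1 in cKO. The receptors called in dE3 include Tacr3 and Grpr, which have a single transcript and kept their totals. Of all genes, 2374 of 15514 were called in dE3 and 2123 of 15588 in cKO, each against WT. These causes were not tested beyond the smaller sets that a minimum leaves. No paired analysis was possible because each genotype has 1 library, and for the same reason no replicate could be left out. At their depth, the intervals of Nts and Calca in dE3 against WT included a ratio of 1.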

Other observations

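Of 11 listed enzymes that break down released neuropeptides, all measured, none was called in either mutant against WT, beside 10.3% (dE3) and 6.91% (cKO) of all measured genes, with a median log2 ratio of -0.11 (dE3) and 0.19 (cKO). Mme encodes neprilysin, which degrades enkephalins and substance P, and had 382 counts in dE3, 340 in cKO and 289 in WT. Npepps, a cytosolic aminopeptidase, had the highest TPM of the list in WT and stood at 133 TPM in dE3, 139 in cKO and 169.7 in WT. Ace, which also cleaves substance P, had 261 counts in dE3, 464 in cKO and 319 in WT.

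Several of the other listed peptide precursors were at 0 counts in all 3 libraries, among them Tac2, Kiss1, Ucn and Npw. Vip had 12 counts in dE3, 5 in cKO and 0 in WT, and Trh had 20, 13 and 6, so both stayed below 1 CPM in every library.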
